A study of Mus musculus with 30 samples.

Results

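The extracellular matrix of the brain is the subject here, through 40 named genes: 5 fibrillar and other collagens, 7 basement membrane genes, 3 glycoproteins, 7 genes of perineuronal nets and hyaluronan-bound matrix, 7 membrane proteoglycans, 2 matrix receptors, 6 proteases and 3 protease inhibitors. All 40 were found among the 36528 gene identifiers of the deposited files. RNA was sequenced from 30 libraries of sorted mouse brain cells, in 6 groups of 5. PS2APP transgenic mice gave Gfap+ astrocyte, Cd11b+ myeloid and NeuN+ neuron libraries, and non-transgenic (non-Tg) littermates gave the same 3 populations, all at an age of 11.5 months. PS2APP mice carry human transgenes for mutant presenilin 2 and amyloid precursor protein and form amyloid plaques. The line is known to express both transgenes in neurons from the Thy1 and prion protein promoters. The labels do not say which libraries share an animal or whether animals were pooled, and the spread that p-values are based on may in part be technical.

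The matrix of the adult brain holds little fibrillar collagen and much hyaluronan, a long sugar chain made at the cell surface. Lecticans (Acan, Bcan, Ncan and Vcan) are chondroitin sulfate proteoglycans that bind hyaluronan at one end, held there by link proteins of the Hapln family, and bind tenascin-R (Tnr) at the other. Condensed around some neurons, this lattice is the perineuronal net. Basement membranes of laminins, collagen IV, perlecan (Hspg2) and agrin (Agrn) line the vessels and the pial surface. Proteases of the Adamts and Mmp families cut these proteins, and Timp proteins inhibit them.

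Levels are given as CPM, the count divided by the library's total and expressed per 1e6 counts, scaled by TMM factors over all 30 libraries where populations are set side by side, and over the 10 libraries of a population where PS2APP and non-Tg are compared. Levels of different genes are compared only as deposited RPKM, which divides by gene length. Sums over marker lists or gene groups use the scaling over all libraries. The total count lay between 2015535 and 6749681 per library, so that 3 counts were worth 0.444 to 1.49 CPM. PS2APP myeloid totals averaged 2473581 ± 413655, below the 4704683 ± 1051807 of non-Tg myeloid totals (SD, n = 5 each). The sort genes followed the labels: in non-Tg libraries Gfap stood at 731 CPM in astrocyte, 17.9 CPM in myeloid and 3.43 CPM in neuron libraries, Itgam (Cd11b) at 5.76, 1537 and 6.91 CPM in the same order, and Rbfox3 (NeuN) at 11.4, 7.21 and 116 CPM. Each sort gene was also highest in its own population in PS2APP libraries, but Gfap stood at 116 ± 37.3 CPM in PS2APP myeloid libraries, against 17.9 ± 4.98 CPM in non-Tg ones, and Rbfox3 at 20.4 ± 5.24 CPM in PS2APP astrocyte libraries, against 11.4 ± 6.07 CPM in non-Tg ones (SD, n = 5 each). The library with the largest absolute score on the first principal component was picked in each population. These were PS2APP astrocyte replicate 3 (111), PS2APP myeloid replicate 4 (97.2) and PS2APP neuron replicate 5 (89.8). The next largest absolute scores were 45.4, 34.1 and 54.7, in the same order of populations. Sample identifiers in the labels form 1 block for astrocytes and another for the other populations, so that whatever the blocks stand for cannot be told apart from cell type.

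Matrix transcripts took up the largest share of counts in astrocyte libraries. The 40 genes summed to 8447 ± 1080 CPM in PS2APP and 8908 ± 540 CPM in non-Tg astrocyte libraries, to 1391 ± 219 CPM in PS2APP and 1780 ± 215 CPM in non-Tg myeloid libraries, and to 1685 ± 211 CPM in PS2APP and 1498 ± 61.9 CPM in non-Tg neuron libraries (SD, n = 5 each). Few genes made most of these sums. The top 3 genes made 63.0% of the PS2APP and 62.9% of the non-Tg astrocyte sum, with Sparcl1 alone at 32.2% and 27.0%. Sparc made 40.4% of the non-Tg myeloid sum, and Tnr 19.3% of the non-Tg neuron sum. Among the 39 genes that passed the filter on low counts in the fit of all libraries, 23 were higher in non-Tg astrocytes than in both other non-Tg populations at an adjusted p under 0.05, against 13.2% of all 18101 genes tested. Myeloid cells had 4 such genes, against 21.1% of all genes, and neurons had 6, against 18.1%. The remaining 6 genes (Lamc1, Fn1, Acan, Gpc4, Adamts5 and Timp4) were highest in no single population, as were 47.5% of all genes. With a difference of at least 4-fold as well, 15 genes were highest in astrocytes (6.47% of all genes), 2 in myeloid cells (8.27%) and 2 in neurons (10.5%). The 40 genes were chosen with earlier results of these data known, so these counts describe the list and are not a test of it. Col3a1, a fibrillar collagen subunit of vessel walls and meninges, was not tested, and its mean lay at 1.90 CPM in PS2APP and 1.39 CPM in non-Tg astrocyte libraries and under 1 CPM elsewhere.

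Astrocytes over myeloid cells gave 37 of 39 genes past the threshold (57.4% of all genes), 33 of them higher in astrocytes (30.7%). Astrocytes over neurons gave 33 (51.7%), with 27 higher in astrocytes (26.9%) and 6 lower (24.8%). Myeloid cells over neurons gave 33 (67.9%), with 17 higher in myeloid cells (34.1%) and 16 lower (33.7%). Scaling by relative log expression (RLE) in place of TMM shifted the log2 folds by 0.17, -0.06 and -0.23 in these 3 comparisons, and the counts of genes highest in each population were 23, 4 and 6 with it as well.

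**Figure D1:**
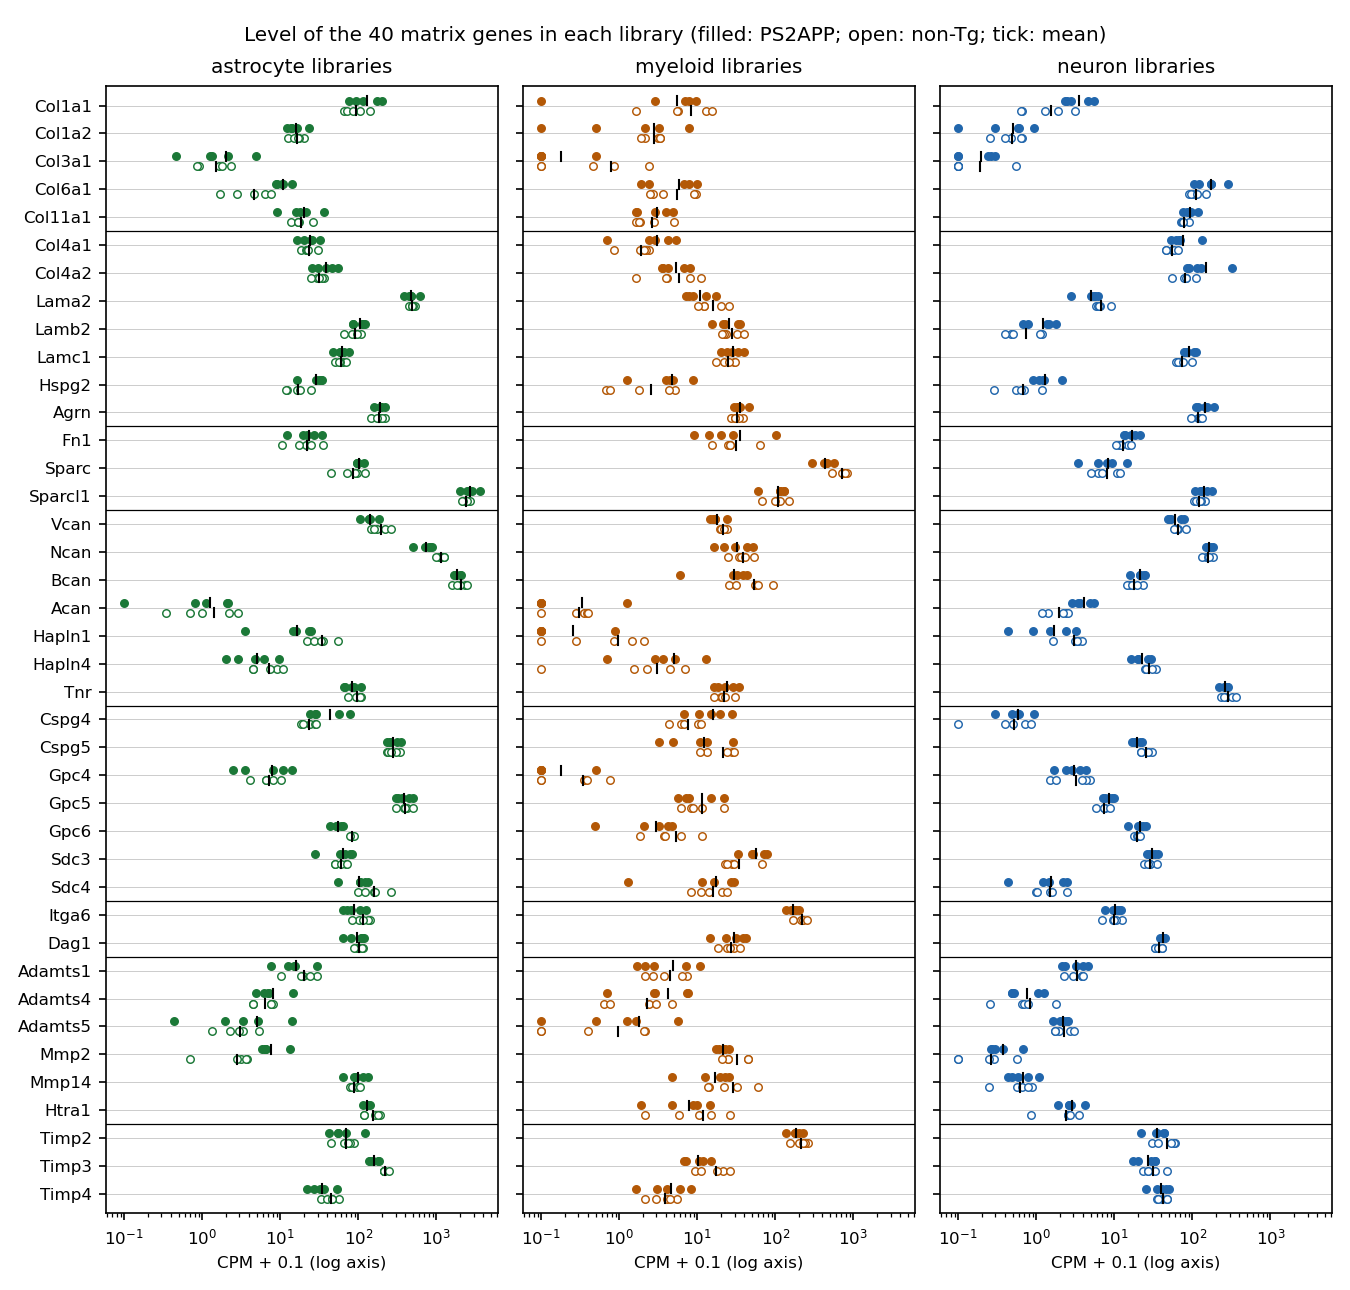
Level of each of the 40 matrix genes in each library, as CPM scaled over all libraries plus 0.1, on a log axis, with 1 panel per population; filled points are PS2APP libraries, open points non-Tg libraries, vertical ticks the mean of 5, and horizontal lines separate the functional groups. Most genes lie farther right among astrocytes, while Sparc, Mmp2 and Timp2 do so among myeloid cells and Col6a1, Col11a1 and Tnr among neurons.

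Of the glycoproteins, Sparc and Sparcl1 divided between populations. Where 3 levels are given in a row here and in what follows, they are means of non-Tg astrocyte, myeloid and neuron libraries, in that order. Sparc is a secreted collagen-binding protein, and Sparcl1 (hevin) is its relative, known as an astrocyte protein that promotes synapse formation. Sparc stood at 84.9 ± 28.7 CPM in non-Tg astrocyte, 719 ± 109 CPM in non-Tg myeloid and 8.06 ± 3.05 CPM in non-Tg neuron libraries (SD, n = 5 each). The lowest non-Tg myeloid library, at 539 CPM, lay above the highest non-Tg astrocyte library, at 120 CPM. The log2 fold of Sparc was -3.08 ± 0.26 (SE) for astrocytes over myeloid cells (adjusted p = 1.5e-12) and 6.49 ± 0.32 for myeloid cells over neurons (adjusted p = 2.0e-19). Sparcl1 stood at 2409 ± 228, 107 ± 30.7 and 123 ± 15.7 CPM in non-Tg astrocyte, myeloid and neuron libraries, with a log2 fold of 4.49 ± 0.22 for astrocytes over myeloid cells. Per length, Sparcl1 was first among the 40 genes in non-Tg astrocytes at 225 ± 20.6 RPKM and in non-Tg neurons at 12 ± 1.44 RPKM, and Sparc was first in non-Tg myeloid cells at 61.5 ± 8.81 RPKM (SD, n = 5 each). Sparcl1 in astrocytes exceeded 99.9% of all genes, and Sparc in myeloid cells 99.7%. Fibronectin (Fn1), a ligand of many integrins, was highest in no population, at 21.7, 31.2 and 12.9 CPM.

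The lectican lattice was split between glia and neurons. Bcan (brevican) stood at 2049 ± 347 CPM in non-Tg astrocyte, 52.8 ± 27.2 CPM in non-Tg myeloid and 18 ± 3.56 CPM in non-Tg neuron libraries. It was second per length in astrocytes at 140 ± 23.8 RPKM, and Ncan (neurocan) came next at 49.9 ± 4.81 RPKM. Ncan was also present in non-Tg neurons, at 157 ± 18.5 CPM against 1149 ± 110 CPM in non-Tg astrocytes, and Vcan (versican) stood at 192, 21.3 and 65.9 CPM in non-Tg astrocytes, myeloid cells and neurons. Tnr had 97.4 ± 14.6 CPM in non-Tg astrocytes, 22.1 ± 4.99 CPM in non-Tg myeloid cells and 289 ± 54.2 CPM in non-Tg neurons, with a log2 fold of -1.57 ± 0.19 for astrocytes over neurons (adjusted p = 5.9e-09). The link protein Hapln1 was highest in astrocytes, at 34.3, 0.856 and 2.99 CPM, and its relative Hapln4, known as a link protein of perisynaptic nets, was highest in neurons, at 7.13, 2.96 and 28.1 CPM. Aggrecan (Acan), a core component of perineuronal nets, was low in each non-Tg population, with at most 1.86 ± 0.621 CPM in non-Tg neurons.

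Each lectican gene lies beside a link protein gene in the mouse genome (GRCm38). Hapln1 and Vcan are 43.5 kb apart on chromosome 13, Hapln4 and Ncan 2.2 kb apart on chromosome 8, Hapln2 and Bcan 18.4 kb apart on chromosome 3, and Hapln3 and Acan 1.9 kb apart on chromosome 7, with 0 genes between them in each pair. The pairs did not always share a population. Hapln1 and Vcan were both highest in non-Tg astrocytes, and so were Hapln2 and Bcan. However, Hapln4 was highest in neurons while Ncan was highest in astrocytes. Hapln3 was highest in astrocytes and Acan in no single population. Oligodendrocyte markers averaged 1017 CPM in non-Tg astrocyte, 872 CPM in non-Tg myeloid and 194 CPM in non-Tg neuron libraries. Their part in the Hapln2 counts was not tested.

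The sequence before the start of a gene is shown for 2 genes highest in astrocytes (Sdc4 and Adamts1, which also holds the TATA letters below) and 2 highest in neurons (Tnr and Col11a1), because these stretches hold no exon in GENCODE and lie outside the widest RefSeq span of the gene. Windows of 250 bases upstream of the start in RefSeq on GRCm38.p6 were read. Sdc4 and Adamts1 are printed whole, while Tnr and Col11a1 are printed for 210 and 189 bases, up to where that span begins. Letters run 5′ to 3′ on the strand of the gene, with CG dinucleotides in capitals.
Sdc4, chr2:164443189-164443438, - strand: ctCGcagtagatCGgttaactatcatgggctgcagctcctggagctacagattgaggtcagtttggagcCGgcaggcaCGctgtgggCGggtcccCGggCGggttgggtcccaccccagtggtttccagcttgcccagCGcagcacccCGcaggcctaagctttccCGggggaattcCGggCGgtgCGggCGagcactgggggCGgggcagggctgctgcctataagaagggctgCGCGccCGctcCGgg
Adamts1, chr16:85803114-85803363, - strand: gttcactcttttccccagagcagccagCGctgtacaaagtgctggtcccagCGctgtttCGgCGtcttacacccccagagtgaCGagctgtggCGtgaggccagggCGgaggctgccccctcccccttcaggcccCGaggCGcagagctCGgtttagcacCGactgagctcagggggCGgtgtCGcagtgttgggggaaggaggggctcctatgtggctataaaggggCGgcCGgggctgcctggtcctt
Tnr, chr1:159523519-159523728, + strand: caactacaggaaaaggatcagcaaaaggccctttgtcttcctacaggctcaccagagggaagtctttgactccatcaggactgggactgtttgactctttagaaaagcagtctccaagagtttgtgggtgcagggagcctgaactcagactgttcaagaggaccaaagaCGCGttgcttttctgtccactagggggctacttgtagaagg
Col11a1, chr3:114030290-114030478, + strand: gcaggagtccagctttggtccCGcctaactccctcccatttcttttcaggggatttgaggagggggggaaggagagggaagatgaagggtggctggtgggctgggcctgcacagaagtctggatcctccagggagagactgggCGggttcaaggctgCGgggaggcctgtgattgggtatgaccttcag
The full Sdc4 window holds 19 CG dinucleotides, that of Adamts1 15, that of Tnr 2 and that of Col11a1 7, beside a median of 6 over 32851 mouse promoter windows. These 4 do not stand for their populations. Windows of genes highest in astrocytes held from 0 (Lama2) to 36 (Dag1), and those of genes highest in neurons from 2 (Tnr) to 31 (Col4a1). Windows were at hand for 29 of the 40 genes, some with 2 windows. The TATA box letters TATAAA were searched on both strands and occurred in 3 of 20 windows of 18 genes highest in astrocytes (Ncan, Gpc5 and Adamts1) and in 0 of 5 of genes highest in neurons, against 12.4% of all windows. The letters GAGGAAGT, which the myeloid factor PU.1 binds, occurred in 0 of 2 windows of genes highest in myeloid cells and in 2.44% of all windows. A match of letters describes the window alone.

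Basement membrane genes were shared between astrocytes and neurons. Laminin alpha 2 (Lama2) stood at 490 ± 26.1 CPM in non-Tg astrocytes, 16.0 ± 6.69 CPM in non-Tg myeloid cells and 6.76 ± 1.24 CPM in non-Tg neurons, with a log2 fold of 6.17 ± 0.26 for astrocytes over neurons. Its partner Lamb2 was also highest in astrocytes (89.2, 27.5 and 0.635 CPM), as were perlecan (Hspg2; 16.6, 2.47 and 0.572 CPM) and agrin (Agrn; 186, 32.0 and 119 CPM). Lamc1, the gamma chain that joins them, was at 59.5 ± 7.34 CPM in non-Tg astrocytes and 74.0 ± 14.3 CPM in non-Tg neurons, a difference that did not pass the threshold (adjusted p = 0.17). The collagen IV chains Col4a1 and Col4a2, transcribed from a shared head-to-head promoter, were highest in neurons. Col4a1 had 22.9, 1.78 and 54.1 CPM and Col4a2 31.3, 5.69 and 81.5 CPM in non-Tg astrocytes, myeloid cells and neurons. The 10 endothelial markers summed to 20.9 to 66.6 CPM in PS2APP and 22.0 to 57.1 CPM in non-Tg astrocyte libraries, to 46.3 to 86.0 CPM in PS2APP and 40.8 to 60.9 CPM in non-Tg myeloid libraries, and to 6.56 to 13.7 CPM in PS2APP and 9.0 to 11.7 CPM in non-Tg neuron libraries, with Cldn5 at a mean of 1.85 CPM in non-Tg astrocytes and 0.0903 CPM in non-Tg neurons. The part of vessel cells in the basement membrane counts was not tested.

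Collagens outside the basement membrane also separated. Col6a1, a chain of beaded-filament collagen, stood at 4.51 ± 2.43 CPM in non-Tg astrocytes, 5.39 ± 3.53 CPM in non-Tg myeloid cells and 111 ± 24.1 CPM in non-Tg neurons, and was the third of the 40 genes per length in neurons at 9.06 ± 1.86 RPKM. Its log2 fold was -4.58 ± 0.39 for astrocytes over neurons (adjusted p = 2.0e-12). Col11a1, a minor fibrillar chain, had 18.2, 2.53 and 77.7 CPM. Col1a1 and Col1a2, which encode the chains of type I collagen, were highest in astrocytes, with Col1a1 at 93.7 ± 30.5, 8.11 ± 5.76 and 1.44 ± 1.06 CPM and Col1a2 at 16.4, 2.68 and 0.387 CPM. The 8 fibroblast and meningeal markers summed to 37.4 to 104 CPM in PS2APP and 31.1 to 77.4 CPM in non-Tg astrocyte libraries, above the 3.39 to 10.5 CPM of non-Tg neuron libraries, with Igf2 as the most abundant and Dcn at a mean of 2.41 CPM in non-Tg astrocytes. Their part in the type I collagen counts was not tested.

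Among membrane proteoglycans, 6 of 7 were highest in astrocytes. Gpc5, a glypican with heparan sulfate chains, stood at 399 ± 71.3 CPM, and Cspg5 (neuroglycan C) at 276 ± 46.8 CPM in non-Tg astrocytes. Gpc6, known as an astrocyte-secreted factor that recruits glutamate receptors, had 83.0, 5.30 and 19.6 CPM, and the syndecan Sdc4 159, 15.6 and 1.42 CPM in non-Tg astrocytes, myeloid cells and neurons. Sdc3 was the closest call, at 60.1, 34.4 and 28.7 CPM. Cspg4 (NG2), which also marks oligodendrocyte precursors and pericytes, had 23.4, 7.62 and 0.415 CPM. The precursor markers summed to 149 to 229 CPM in non-Tg astrocyte libraries, led by Olig2 at 128 CPM with Pdgfra at 11.3 CPM, and the pericyte markers to 184 to 245 CPM, led by Pdgfrb at 181 CPM; their part in Cspg4 was not tested. Gpc4 was at 6.99 CPM in non-Tg astrocytes and 3.18 CPM in non-Tg neurons (adjusted p = 0.061).

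The receptors and the enzyme system had both glial poles. The laminin receptor integrin alpha 6 (Itga6) was highest in myeloid cells, at 114 ± 23.4, 217 ± 30.7 and 9.90 ± 2.05 CPM in non-Tg astrocytes, myeloid cells and neurons, and dystroglycan (Dag1) was highest in astrocytes at 102, 26.7 and 36.9 CPM. The gelatinase Mmp2 was highest in myeloid cells at 2.70 ± 1.25, 31.8 ± 11.6 and 0.16 ± 0.189 CPM, whereas Mmp14, the membrane protease known to activate pro-Mmp2, was highest in astrocytes at 88.3, 28.3 and 0.528 CPM. The serine protease Htra1 (153, 11.8 and 2.34 CPM), Adamts1 (20.3, 4.37 and 3.28 CPM) and Adamts4 (6.37, 2.21 and 0.737 CPM) were highest in astrocytes. The part of oligodendrocyte RNA in the Adamts4 counts was not tested. Adamts5, a further aggrecan-cutting protease, was low at 2.93, 0.864 and 2.14 CPM. The inhibitors took 3 different patterns. Timp2 was highest in myeloid cells at 70.1 ± 16.6, 216 ± 40.9 and 47.4 ± 13.2 CPM, Timp3 in astrocytes at 220 ± 16.0, 17.1 ± 7.03 and 31.4 ± 9.55 CPM, and Timp4 did not differ past the threshold between astrocytes and neurons, at 44.3 ± 8.69, 3.74 ± 1.29 and 41.4 ± 5.84 CPM (log2 fold 0.10 ± 0.26, adjusted p = 0.79). Timp3 lies within Syn3 on the other strand and shares 1733 of 8144 exon bases with it, and Timp4 shares 90 of 5894 with Syn2, so reads of those stretches cannot be assigned to either gene without strand, and the sources used here do not give whether counting used it.

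The same rule in the PS2APP groups put 22 genes highest in astrocytes (12.7% of all genes), 4 in myeloid cells (18.5%) and 8 in neurons (18.7%). Lamc1 and Acan joined those highest in neurons and Gpc4 those highest in astrocytes. Sdc3 and Adamts4 were no longer highest in astrocytes. For Sdc3 the log2 fold of astrocytes over myeloid cells was 0.14 in PS2APP groups (adjusted p = 0.67) and 0.80 in non-Tg groups (adjusted p = 0.01), and the difference between them is the test of unequal PS2APP change given further on.

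In myeloid cells 1 of the 31 matrix genes tested, Sparc, passed an adjusted p of 0.05, near the 3.36% of all 12274 genes in either direction. Sparc fell, as did 1.5% of all genes at that threshold. An unadjusted p under 0.05 occurred in 4 of the 31, against 19.3% of all genes. DESeq2 called 1 of 27 matrix genes, against 7.88% of all genes. The filter removed 9 genes here (Col1a2, Col3a1, Col11a1, Col4a1, Acan, Hapln1, Gpc4, Adamts4 and Adamts5). Sparc had 434, 426, 447, 313 and 547 CPM in PS2APP myeloid libraries, against 517, 672, 693, 773 and 737 CPM in non-Tg myeloid libraries. Only the highest PS2APP library reached the range of the non-Tg libraries. Its log2 fold change was -0.65 ± 0.16 (SE, adjusted p = 0.029), from means of 433 ± 83.4 CPM in PS2APP and 678 ± 98.4 CPM in non-Tg libraries (SD, n = 5 each). The call depended on single libraries: it held in 4 of 10 fits that each left out 1 library, was lost without PS2APP replicate 1, 3 or 4 or non-Tg replicate 3, 4 or 5 (adjusted p = 0.05 to 0.097), and was lost with the mitochondrial share of counts as a covariate (-0.50, adjusted p = 0.38).

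Several other values move with the same contrast. The mitochondrial share of counts averaged 13.5 ± 2.97% in PS2APP, against 8.75 ± 2.89% in non-Tg myeloid libraries. The 10 microglial markers summed to 5989 to 8940 CPM in PS2APP and 9152 to 10757 CPM in non-Tg myeloid libraries, without overlap. A two-sided exact permutation test gave p = 0.00794, the smallest that 5 against 5 allows, and an adjusted p of 0.0655 over 33 such tests. The difference in this sum was -2399 CPM with TMM scaling and -1441 CPM with RLE scaling. Oligodendrocyte markers summed to 1163 to 1795 CPM in PS2APP and 714 to 1101 CPM in non-Tg myeloid libraries, and neuron markers to 588 to 802 CPM in PS2APP and 362 to 611 CPM in non-Tg myeloid libraries. Their part in the Sparc difference was not tested. In bulk libraries fewer cells of a type and less RNA per cell cannot be told apart.

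The 3 matrix genes next in order of p in myeloid cells did not pass. Sdc3, a syndecan, had 48.2, 74.0, 75.3, 35.6 and 49.5 CPM in PS2APP myeloid libraries, against 21.7, 62.7, 27.0, 27.2 and 22.7 CPM in non-Tg myeloid libraries. A single non-Tg library, replicate 2, lay within the PS2APP range, and the log2 fold change was 0.80 ± 0.29 (adjusted p = 0.12) with it and 1.2 (adjusted p = 0.018) without it. Cspg4 had 14.7, 10.6, 6.46, 29.9 and 18.7 CPM in PS2APP myeloid libraries, against 9.61, 3.94, 5.85, 10.2 and 6.40 CPM in non-Tg ones (log2 fold change 1.14 ± 0.44, adjusted p = 0.15). Bcan, an astrocyte transcript at a low level in this sort, had 6.37 to 41.7 CPM in PS2APP and 23.8 to 86.4 CPM in non-Tg myeloid libraries (-0.75 ± 0.36, adjusted p = 0.26). Over the 31 genes the median log2 fold change was -0.03, beside -0.002 over all genes, with 15 above 0 and 16 below. The other myeloid matrix genes, Timp2 (-0.16 ± 0.16, adjusted p = 0.63), Itga6 (-0.27 ± 0.15, adjusted p = 0.34) and Mmp2 (-0.51 ± 0.29, adjusted p = 0.34), did not pass. The groups overlapped in each of the 31 genes, while 2.09% of all genes were higher and 2.71% lower without overlap.

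**Figure D2:**
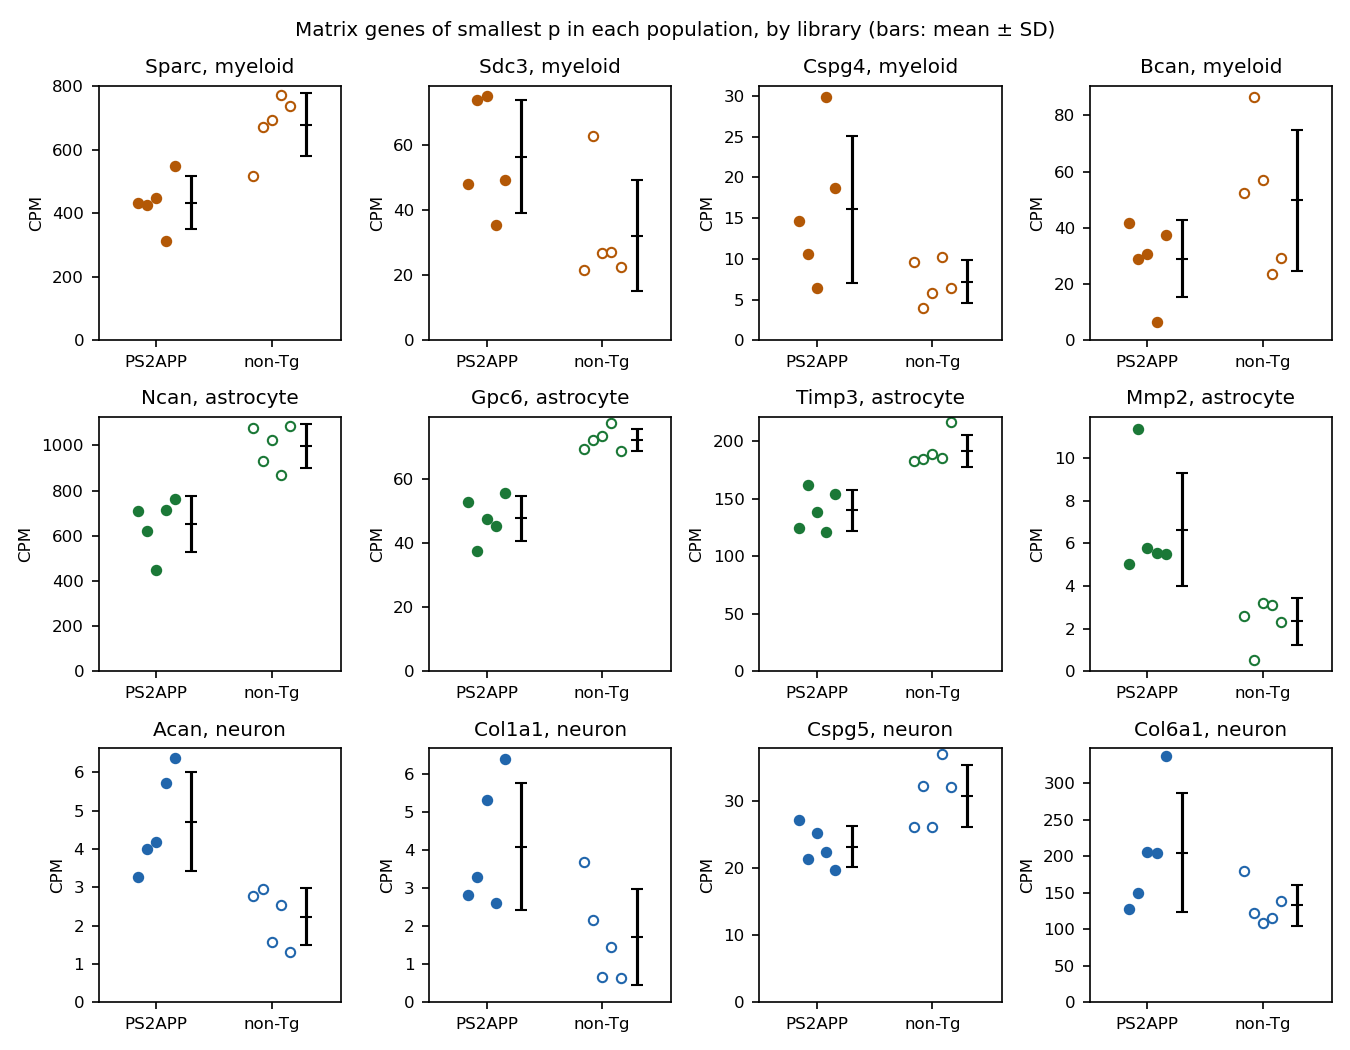
CPM of the 4 matrix genes of smallest p in each population, by library, scaled within the population; filled points are PS2APP and open points non-Tg libraries, and black bars give the mean ± SD of 5. Sparc in myeloid cells is the panel past the threshold, with 1 PS2APP library at 547 CPM inside the non-Tg range; Ncan, Gpc6, Timp3 and Mmp2 in astrocytes and Acan in neurons do not overlap between groups.

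In astrocytes 0 of 38 matrix genes passed in edgeR, against 0.185% of all 14043 genes. Of the 38, 10 had an unadjusted p under 0.05, against 17.2% of all genes, and DESeq2 called 2 (Ncan and Gpc6), against 2.25% of all genes. Col3a1 and Acan were removed by the filter. Ncan had 710, 622, 448, 715 and 763 CPM in PS2APP astrocyte libraries, against 1077, 931, 1025, 868 and 1088 CPM in non-Tg astrocyte libraries. Each PS2APP library lay below each non-Tg library. The log2 fold change was -0.61 ± 0.16 (adjusted p = 0.12 in edgeR, 0.036 in edgeR without the filter on low counts and 0.03 in DESeq2). It was -0.14 (adjusted p = 0.97) once the mitochondrial share entered the model. That share did not overlap between PS2APP (5.6 to 8.6%) and non-Tg (2.41 to 4.74%) astrocyte libraries, so this fit separates it poorly from genotype. Gpc6 had 52.6, 37.5, 47.4, 45.3 and 55.5 CPM in PS2APP astrocyte libraries, against 69.2, 72.1, 73.2, 77.2 and 68.7 CPM in non-Tg ones, again without overlap (-0.60 ± 0.17, edgeR adjusted p = 0.13, DESeq2 adjusted p = 0.038). Timp3 had 124, 162, 138, 121 and 154 CPM in PS2APP astrocyte libraries, against 183, 184, 188, 185 and 216 CPM in non-Tg ones, without overlap (-0.45 ± 0.15, adjusted p = 0.16). Syn3, which shares exon bases with Timp3, had 51.5 ± 9.30 CPM in PS2APP and 65.8 ± 14.5 CPM in non-Tg astrocyte libraries, and its part in the Timp3 counts was not tested. Mmp2 was low, with 5.01, 11.4, 5.77, 5.53 and 5.51 CPM in PS2APP astrocyte libraries, against 2.61, 0.516, 3.21, 3.12 and 2.30 CPM in non-Tg ones (1.49 ± 0.51, adjusted p = 0.17), from 16 to 34 counts a library in PS2APP and 3 to 24 in non-Tg astrocytes. These 4 and Col6a1 (9.32 ± 1.80 CPM in PS2APP and 3.91 ± 2.11 CPM in non-Tg, 1.24 ± 0.44, adjusted p = 0.18) were the genes without overlap, 2 of 38 higher against 1.26% of all genes and 3 of 38 lower against 1.73%.

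By role, the astrocyte fold changes of the hyaluronan-bound matrix lay on 1 side. So did those of smaller roles: protease inhibitors (3 genes, median -0.37) and matrix receptors (2 genes, -0.20) below 0, and glycoproteins (3 genes, 0.19) above 0. The 6 tested genes of the hyaluronan-bound group had log2 fold changes from -1.06 to -0.12 with a median of -0.46, beside 0.007 over all genes and 0.05 over the 38 matrix genes. Of these 6 genes, 0 passed the threshold. Hapln1 had 13.8, 21.4, 3.04, 20.2 and 12.7 CPM in PS2APP astrocyte libraries, against 18.8, 23.2, 30.7, 29.1 and 47.4 CPM in non-Tg ones (-1.06 ± 0.37, adjusted p = 0.18). Vcan averaged 122 ± 24.0 CPM in PS2APP and 167 ± 41.6 CPM in non-Tg astrocyte libraries (-0.45 ± 0.19, adjusted p = 0.24), and Bcan 1632 ± 155 and 1777 ± 291 CPM (-0.12 ± 0.15, adjusted p = 0.71). The 7 genes of the group summed to 2455 to 3275 CPM in PS2APP and 3070 to 3921 CPM in non-Tg astrocyte libraries. The 7 basement membrane genes had a median of 0.07, with Hspg2 at 25.1 ± 6.37 CPM in PS2APP and 14.4 ± 4.52 CPM in non-Tg astrocytes (0.80 ± 0.28, adjusted p = 0.18). Cspg4 (0.89 ± 0.31) and Sdc4 (-0.61 ± 0.25) also had adjusted p-values above 0.05, at 0.18 and 0.23. The mitochondrial share in the same libraries was 5.6 to 8.6% in PS2APP, above the 2.41 to 4.74% of non-Tg astrocytes. Neuron markers summed to 1396 to 2905 CPM in PS2APP and 870 to 1255 CPM in non-Tg astrocyte libraries (p = 0.00794 by exact permutation, adjusted p = 0.0655), and all 13 markers were at 1 CPM or more in both groups. Microglial markers summed to 77.7 to 147 CPM in PS2APP and 41.2 to 77.2 CPM in non-Tg astrocyte libraries, without overlap (exact permutation p = 0.00794, adjusted p = 0.0655). Oligodendrocyte markers averaged 1551 ± 393 CPM in PS2APP and 1017 ± 191 CPM in non-Tg ones (p = 0.0317 by exact permutation, adjusted p = 0.174). Astrocyte markers averaged 10500 ± 1470 CPM in PS2APP and 13891 ± 3254 CPM in non-Tg astrocyte libraries (p = 0.0794 by exact permutation, adjusted p = 0.32). Slc1a2 made most of this sum, at 7097 CPM in PS2APP and 10619 CPM in non-Tg, while Gfap stood at 1274 and 731 CPM. Mmp2 is among the genes highest in myeloid cells. The part of these values in the matrix differences was not tested.

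**Figure D3:**
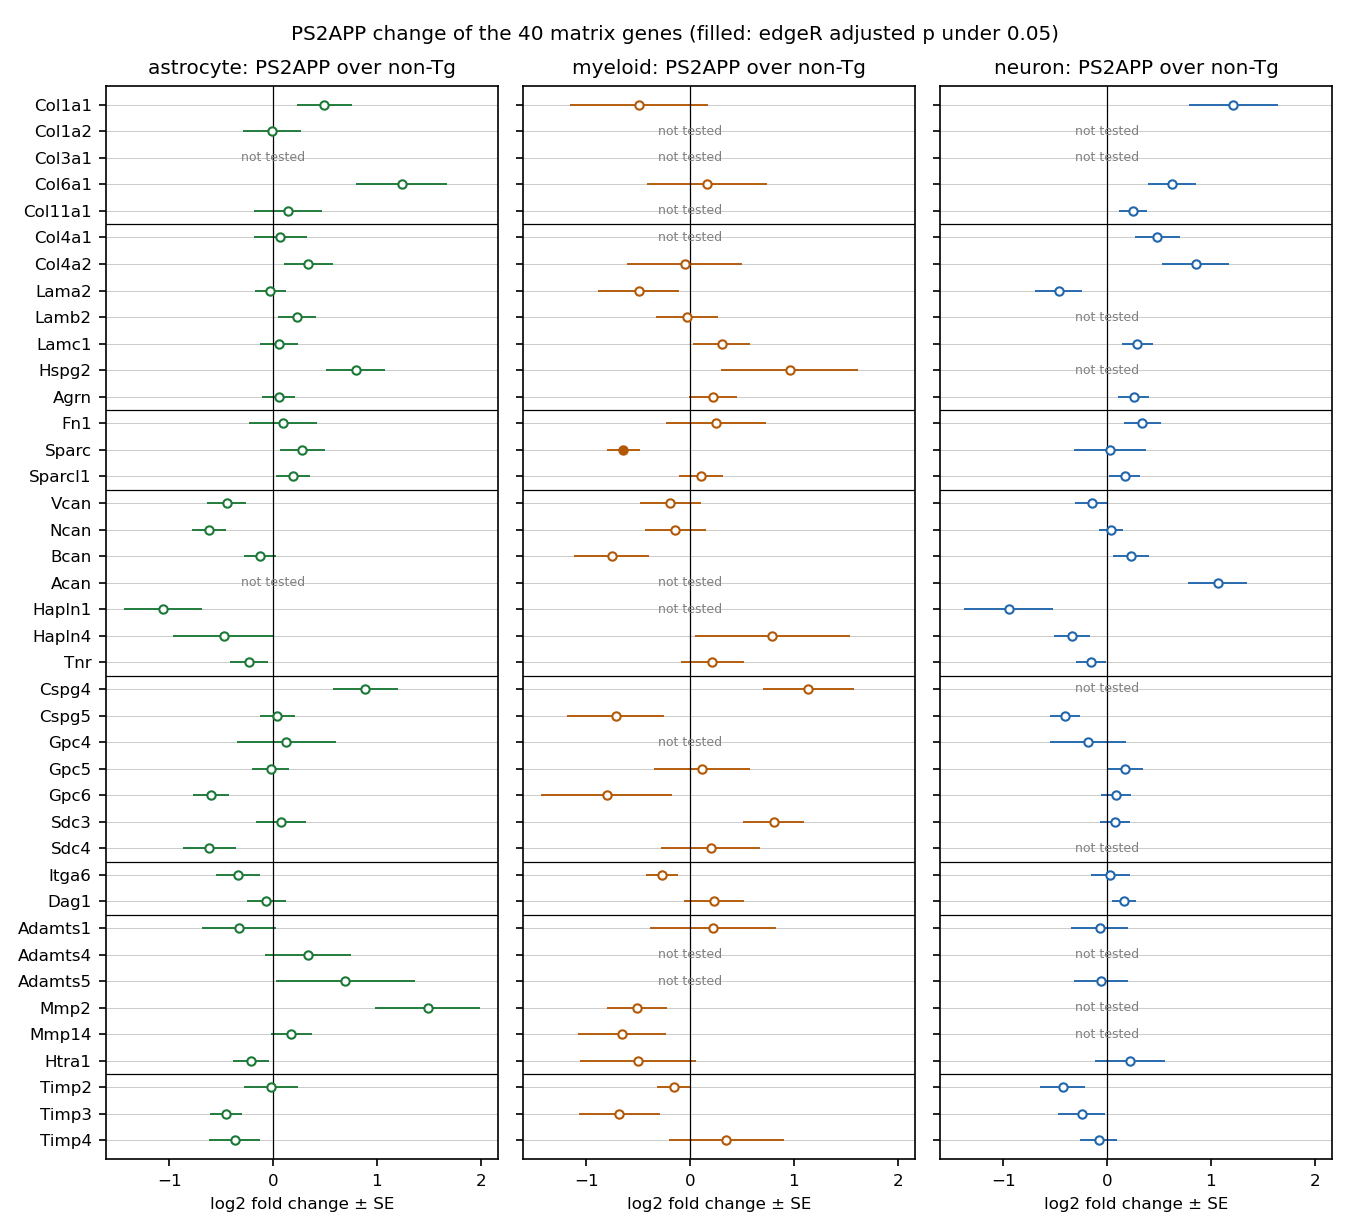
Log2 fold change of PS2APP over non-Tg with its SE for each matrix gene, 1 panel per population, from edgeR fits of each population alone; horizontal lines separate functional groups, filled points have an adjusted p under 0.05, and genes removed by the filter on low counts read as not tested. Sparc in myeloid cells (-0.65) is the filled point, and the 6 astrocyte points from Vcan to Tnr lie left of 0.

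In neurons 0 of 31 matrix genes passed in edgeR, against 0.00623% of all 16064 genes (1 gene). An unadjusted p under 0.05 occurred in 7 of the 31, near the 22.9% of all genes, and DESeq2 called 0 matrix genes and 1.15% of all genes. The filter removed 9 genes (Col1a2, Col3a1, Lamb2, Hspg2, Cspg4, Sdc4, Adamts4, Mmp2 and Mmp14). Acan had 3.28, 4.0, 4.18, 5.73 and 6.38 CPM in PS2APP neuron libraries, against 2.76, 2.97, 1.58, 2.54 and 1.30 CPM in non-Tg neuron libraries. Each PS2APP library lay above each non-Tg library, from 14 to 35 counts against 7 to 22 counts a library (log2 fold change 1.07 ± 0.28, adjusted p = 0.19), while 1.26% of all genes were higher without overlap. Col1a1 had 2.81, 3.30, 5.32, 2.62 and 6.38 CPM in PS2APP neuron libraries, against 3.68, 2.16, 0.676, 1.45 and 0.652 CPM in non-Tg ones (1.22 ± 0.43, adjusted p = 0.19). Cspg5 had 27.2, 21.4, 25.3, 22.4 and 19.7 CPM in PS2APP neuron libraries, against 26.2, 32.3, 26.2, 37.0 and 32.1 CPM in non-Tg ones (-0.41 ± 0.15, adjusted p = 0.19). Col6a1 had 127, 149, 205, 205 and 336 CPM in PS2APP neuron libraries, against 179, 122, 108, 115 and 139 CPM in non-Tg ones (0.62 ± 0.23, adjusted p = 0.19).

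PS2APP neuron replicate 5, the neuron library with the largest absolute score on the first principal component, was the highest for Acan, Col1a1, Col6a1, Col4a1 and Col4a2. Col4a2 had 104 to 150 CPM in the other 4 PS2APP neuron libraries and 383 CPM in replicate 5, against 66.2 to 132 CPM in non-Tg neuron libraries (0.85 ± 0.32, adjusted p = 0.19). The median over the 31 genes was 0.08, beside -0.02 over all genes, with 19 above 0 and 12 below. The 3 tested genes of the group of fibrillar and other collagens (Col1a1, Col6a1 and Col11a1) ranged from 0.25 to 1.22. The 3 Timp genes ranged from -0.43 to -0.08. The neuron markers summed to 3259 to 4898 CPM in PS2APP and 2985 to 3856 CPM in non-Tg neuron libraries. Without PS2APP myeloid replicate 4, PS2APP astrocyte replicate 3 or PS2APP neuron replicate 5, each left out of its own population, 0 matrix genes passed in that population.

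Whether a PS2APP change differed between populations was tested in the fit of all libraries. No matrix gene passed in edgeR: 0 of 39 for myeloid minus astrocyte (0.757% of all genes, 0.464% lower, 0.293% higher), 0 for myeloid minus neuron (0.105%, 0.0939% higher) and 0 for astrocyte minus neuron (0.0331%). An unadjusted p under 0.05 was reached by 2, 3 and 1 of the 39 genes in these 3 tests, against 13%, 9.65% and 4.97% of all genes. DESeq2 called 1 in the first, Mmp2, and 1.84% of all genes. Mmp2 was named after its values were seen: its difference was -2.06 ± 0.54 (edgeR adjusted p = 0.056, DESeq2 adjusted p = 0.011), and its levels scaled over all libraries were 21.1 ± 3.01 CPM in PS2APP against 31.8 ± 11.6 CPM in non-Tg myeloid cells, and 7.58 ± 3.09 CPM in PS2APP against 2.70 ± 1.25 CPM in non-Tg astrocytes. Without non-Tg myeloid replicate 5 its adjusted p was 0.048. For Sparc, likewise named afterwards, the difference of myeloid minus astrocyte was -0.99 ± 0.35 (adjusted p = 0.18), so its fall in myeloid cells was not shown to differ from its change in astrocytes (0.28 ± 0.22, adjusted p = 0.52). For Sdc3 that difference was 0.65 ± 0.38 (adjusted p = 0.48).

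A wider list of 147 matrix genes outside the 40 covered integrins, enzymes of glycosaminoglycan synthesis and breakdown, further proteases, collagens and laminins. Of 136 tested, 42 were highest in non-Tg astrocytes, 29 in myeloid cells and 30 in neurons, beside 13.2%, 21.1% and 18.1% of all genes. The wider list, too, was chosen with earlier results of these data known. Of 27 genes that build, edit or cut glycosaminoglycans, the sugar chains of proteoglycans, 25 were tested. Of these, 4 were highest in astrocytes, 8 in myeloid cells and 3 in neurons, beside the same shares of all genes. In the PS2APP comparison 1 of 80 tested passed in myeloid cells, 0 of 113 in astrocytes and 0 of 103 in neurons in edgeR, beside 3.36%, 0.185% and 0.00623% of all genes. DESeq2 called 6 in myeloid cells, 6 in astrocytes and 1 in neurons, beside 7.88%, 2.25% and 1.15% of all genes. The myeloid gene was Itgav, integrin alpha V, which pairs with several beta chains to bind vitronectin and latent TGF-beta. It had 64.4, 60.2, 62.3, 64.9 and 42.0 CPM in PS2APP myeloid libraries, against 82.6, 109, 88.3, 114 and 115 CPM in non-Tg myeloid libraries, without overlap. Itgav fell by 0.79 ± 0.18 on the log2 scale (adjusted p = 0.022), a call that was lost without PS2APP replicate 5 (adjusted p = 0.063), non-Tg replicate 4 (0.075) or non-Tg replicate 5 (0.069) and when the mitochondrial share entered the model (-0.72, adjusted p = 0.32). The genes of smallest p elsewhere did not pass in edgeR after the filter. In astrocytes they were the collagen Col27a1 (139 ± 61.5 CPM in PS2APP, 68.4 ± 17.1 CPM in non-Tg, 1.02 ± 0.25, adjusted p = 0.093) and the sarcoglycan Sgcb (-0.92 ± 0.24, adjusted p = 0.12). Col27a1 passed without non-Tg astrocyte replicate 1 (adjusted p = 0.04), without the filter (0.0017), in 1 fit of all libraries (0.011) and in DESeq2 (0.016). Its log2 fold change was 0.03 (adjusted p = 0.99) once the mitochondrial share entered the model, a share that did not overlap between genotypes in astrocytes. Col27a1 is a gene highest in myeloid cells, and the part of myeloid RNA in its astrocyte counts was not tested. Sgcb passed in DESeq2 (0.025). In neurons they were the heparan sulfate sulfotransferase Hs2st1 (29.6 ± 4.76 CPM in PS2APP, 42.0 ± 3.61 CPM in non-Tg, -0.51 ± 0.14, adjusted p = 0.19) and the glypican Gpc3 (1.10 ± 0.30, adjusted p = 0.19), and Hs2st1 passed in DESeq2 (0.043).

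**Figure D4:**
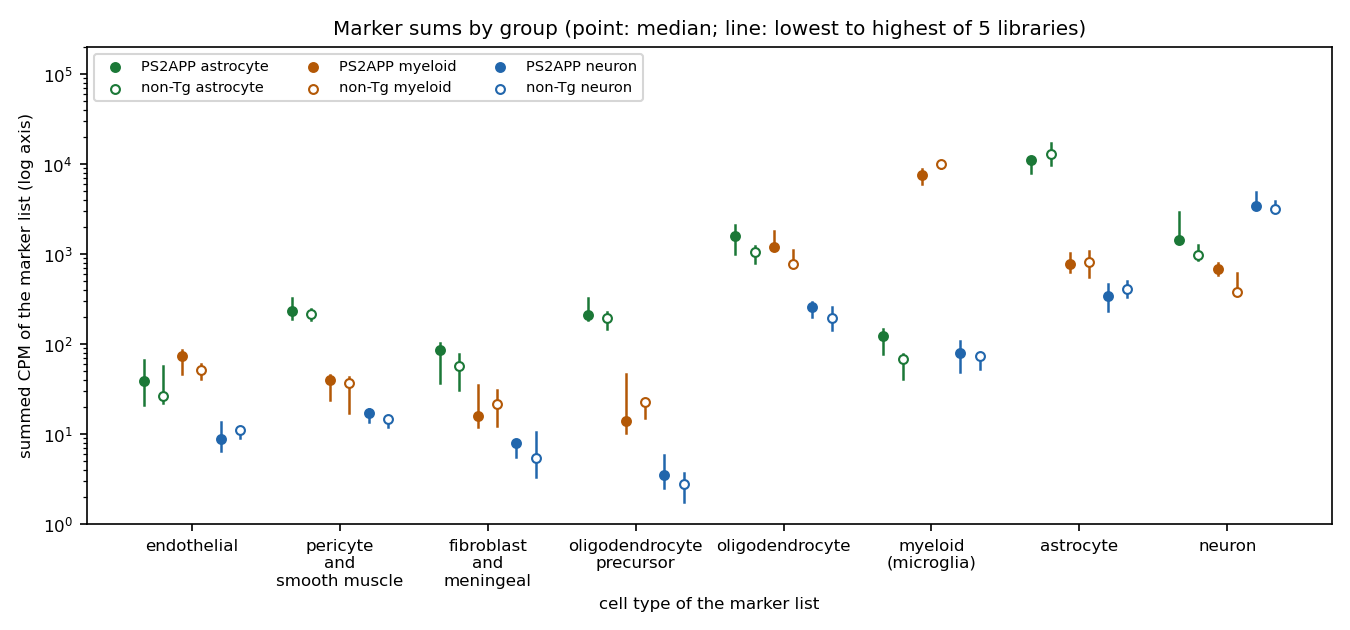
Summed CPM of marker lists for 8 cell types in each group on a log axis; points are medians and lines run from the lowest to the highest of 5 libraries, with PS2APP (filled) left of non-Tg (open) and populations in the order astrocyte, myeloid, neuron. Microglial markers lie at 5989 to 8940 CPM in PS2APP and 9152 to 10757 CPM in non-Tg myeloid libraries, and endothelial markers reach at most 86.0 CPM in PS2APP and 60.9 CPM in non-Tg myeloid libraries.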

How the data were processed

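RNA of 30 sorted libraries was analysed from the deposited tables. Their raw counts are reads aligned uniquely to a gene model, per the file headers, and their RPKM values were adjusted by size factors by the authors. The deposited RPKM were counts times 1 factor per library over gene length (4845 genes checked). The submitters' processing notes name GSNAP and GRCm38, without versions, annotation or strand. Of 36528 identifiers 31049 had a symbol, with 96.7% of counts. The labels' genotype and cell type set the groups. Each pair of replicates differed by more than sampling noise.

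After filterByExpr and TMM scaling, counts were tested by edgeR's quasi-likelihood method (version 4.0.16, R 4.3.3), with Benjamini-Hochberg adjusted p-values over all genes and a threshold of 0.05. PS2APP was compared with non-Tg within each population (10 libraries). Populations and differences between PS2APP changes came from 1 fit of 30 libraries. Alternatives were RLE factors, no filter, DESeq2 1.42.0, the mitochondrial share as a covariate, 1 joint fit, and leaving out each library; the tests were checked on simulated data. Marker sums were compared by two-sided exact permutation in scipy 1.17.1. The members and lists were chosen with earlier results of these data known. Named by rule were members past the threshold, or otherwise the 4 of smallest p per population, the 3 highest by RPKM in each non-Tg population and the members highest in 1 population. Promoter sequences are from RefSeq (GRCm38.p6), and overlaps from GENCODE annotation of the same build. Marker lists for border-associated macrophages, monocytes and neutrophils, and ependyma summed, in PS2APP and non-Tg, to 69.8 and 102, 274 and 483, and 11.8 and 10.2 CPM in myeloid libraries.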

Additional observations from a re-analysis of the deposited data

Results flagged for a closer look

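Of 200 groups of 5 libraries (each of the 40 genes in each of 6 groups, where enough libraries had counts), 14 (7%) had 1 library far from the other 4, a gap of over 0.71 of the group's range. Chance gives about 1 in 20. Values are CPM scaled over all libraries, and no explanation was tested. Col11a1 in non-Tg astrocyte replicate 5 was 26.6 CPM, above the 13.7 to 17.3 CPM of the other 4. The non-Tg neuron libraries had 72.3 to 76.8 CPM of Col11a1, apart from replicate 1 with 90.8 CPM. Col4a1 in PS2APP neuron replicate 5 was 132 CPM, above the 54 to 68.8 CPM of the other 4. The PS2APP neuron libraries had 86.4 to 127 CPM of Col4a2, apart from replicate 5 with 323 CPM. Lama2 in non-Tg neuron replicate 1 was 8.94 CPM, above the 5.81 to 6.52 CPM of the other 4. The PS2APP myeloid libraries had 8.9 to 28.6 CPM of Fn1, apart from replicate 2 with 102 CPM. Fn1 in non-Tg myeloid replicate 2 was 63 CPM, above the 15.3 to 26.5 CPM of the other 4. The PS2APP astrocyte libraries had 96.6 to 99.8 CPM of Sparc, apart from replicate 4 with 118 CPM. Sparcl1 in PS2APP myeloid replicate 4 was 60.3 CPM, below the 115 to 129 CPM of the other 4. The PS2APP myeloid libraries had 14.5 to 17 CPM of Vcan, apart from replicate 2 with 24.2 CPM. Sdc3 in non-Tg myeloid replicate 2 was 68.2 CPM, above the 22.6 to 29.1 CPM of the other 4. The PS2APP astrocyte libraries had 4.75 to 7.1 CPM of Adamts4, apart from replicate 4 with 14.5 CPM. Mmp2 in PS2APP astrocyte replicate 2 was 13.1 CPM, above the 5.7 to 6.44 CPM of the other 4. The non-Tg astrocyte libraries had 211 to 215 CPM of Timp3, apart from replicate 5 with 249 CPM.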

How the results depend on the processing

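No paired analysis was possible because replicate numbers follow accession order and no label ties libraries to an animal. Fold changes were recomputed for the genes of smallest p in each PS2APP comparison and for the members highest in 1 population. Those of Sparc and Mmp2 in the difference of myeloid minus astrocyte were recomputed as well, and other folds were not. None of the recomputed folds changed direction under any alternative run. However, 6 of 33 differences in marker sums changed sign without 1 library or another, each with an adjusted p of 0.72 to 0.984. Of the population folds recomputed, 986 kept their call and 4 did not; these 4 were Sdc3 and Adamts4 in PS2APP groups (astrocyte over myeloid 0.14 and 0.92) and Adamts4 without single non-Tg myeloid libraries. At 4-fold as well, 15, 2 and 2 genes were highest in astrocytes, myeloid cells and neurons. Genes called for PS2APP over non-Tg, in the order no filter, DESeq2, mitochondrial covariate and 1 fit of all libraries, were 939, 911, 26 and 798 in myeloid cells (main 412) and 514, 332, 2 and 295 in astrocytes (main 26), and 15, 164 and 5 without a filter, with DESeq2 and in 1 fit in neurons (main 1). Matrix genes called in myeloid cells were 0 with the covariate and 0 in 1 fit, where Sparc was at -0.72 (adjusted p = 0.08), and 2 in astrocytes without a filter and 2 with DESeq2. Genes of the wider list called were 7, 6, 0 and 6 in myeloid cells, 5, 6 and 3 (1 fit) in astrocytes and 1 (DESeq2) in neurons. For differences of the PS2APP change, no filter gave 213 and DESeq2 377 genes for myeloid minus astrocyte (main 137, with 1 matrix gene by DESeq2), and DESeq2 gave 81 for myeloid minus neuron (main 19) and 17 for astrocyte minus neuron (main 6). RLE scaling moved the microglial marker difference in myeloid cells to -1441 CPM (main -2399) and the Sparc difference of myeloid minus astrocyte to -0.86. Leaving out 1 library gave 105 to 652 genes, 0 to 2 matrix genes and 0 to 3 of the wider list in myeloid cells, 8 to 125, 0 and 0 to 2 in astrocytes, 1 to 11, 0 and 0 in neurons, and 103 to 176 (0 to 1 matrix genes), 12 to 27 and 1 to 11 genes for the 3 differences in the order above. The cause of these shifts was not tested. Depth limits Col3a1, Acan outside neurons and Hapln1 in myeloid cells, which lay near the 0.444 to 1.49 CPM that 3 counts are worth. So did Mmp2, Lamb2, Mmp14, Hspg2, Cspg4 and Col1a2 in non-Tg neurons. In neurons Acan and Hapln1 were also low. Acan had 14 to 35 counts a library in PS2APP and 7 to 22 in non-Tg neurons, and Hapln1 2 to 16 and 10 to 30.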
